A study of Mus musculus with 28 samples.

Results

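The genes described here lie on mouse chromosome 15 within 20 Mb of Vdr, the gene that carries the engineered alleles of this study. They are Methig1, Mettl7a1, Mettl7a2, Cela1, Smagp, Lima1, Gtpbp1, Ttc38, Miox and Csad, 10 of the 30227 rows of the kidney table. They were chosen by their kidney counts: each had differed between genotypes in earlier results of these data. The kidney values are therefore given as a description, and the duodenum, where none of them was picked, is the readout that the choice did not use. The labels do not say whether both tissues came from the same animals. All 10 genes passed the filter on low counts in kidney. In duodenum 9 had a row, 7 passed the filter, and Methig1 was not analysed.

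RNA was measured by 3' end sequencing (QuantSeq, which reads a tag near the end of each transcript) in female mice 8 weeks of age, with 28 libraries in all. In duodenum and in kidney cortex there were 6 wild-type libraries (Vdr+/+, here WT), 4 of the receptor-null line (Vdr-/-, called vdr-/- demay in the file headers, here KO) and 4 of the VdrAF2 line (here AF2), in which the receptor lacks its coactivator-binding function. All groups, controls included, ate the TD.96348 diet, rich in calcium, phosphate and lactose. The sources used here do not state the strain, the part of Vdr altered in each line or the source of the wild-type mice.

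The vitamin D receptor is a nuclear receptor that binds DNA with a retinoid X receptor partner, and the AF2 helix at its end recruits coactivators once hormone is bound. An allele made by gene targeting in embryonic stem cells brings with it the chromosome segment of that cell line, which backcrossing shortens but does not remove. Genes beside the target can then differ from wild type through sequence differences in that segment, in some or all of the tissues that express them. A receptor target follows the state of the receptor. Every mutant mouse carries both the allele and whatever flanks it, so the effect of a gene's neighbourhood and that of the receptor cannot be told apart in these groups.

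Methig1 and Mettl7a2 share a start and differ at their ends, which is why their sequences are shown. In GENCODE vM21 (GRCm38, mm10) Methig1-201 begins at chr15:100353149 and Mettl7a2-201 at chr15:100353200, both on the plus strand, and exon 1 of each ends at 100353707. Mettl7a2 then has a single further exon, at 100360549 to 100361840. Methig1 skips it and continues through exons at 100365264 to 100365360 and 100374879 to 100375013 to a last exon at 100383727 to 100384436, so that it joins a methyltransferase-like first part to a HIG1 hypoxia-inducible domain. The RefSeq promoter windows of the genes (GRCm38.p6) are identical. The part of that window before the first annotated exon, chr15:100352950-100353148 on the plus strand, is printed first. The exon 1 to exon 2 junctions follow, with 30 bases of the shared exon 1 in lower case (100353678 to 100353707) and 30 bases of the exon that differs in capitals (100360549 to 100360578 for Mettl7a2, 100365264 to 100365293 for Methig1).
shared promoter: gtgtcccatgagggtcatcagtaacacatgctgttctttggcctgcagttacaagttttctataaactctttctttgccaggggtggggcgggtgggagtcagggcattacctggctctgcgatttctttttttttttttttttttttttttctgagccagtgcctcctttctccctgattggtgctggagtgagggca
Mettl7a2 junction: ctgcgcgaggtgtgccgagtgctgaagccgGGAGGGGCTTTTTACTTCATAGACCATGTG
Methig1 junction: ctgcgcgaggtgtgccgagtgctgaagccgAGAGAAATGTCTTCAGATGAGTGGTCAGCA

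A 3' tag is read from the last exon, so the 2 transcripts were counted at separate places. The last 300 bases of the Methig1 and Mettl7a2 transcripts were 46.2% identical. Those of Mettl7a2 and its paralog Mettl7a1 were 87.3% identical, and no source says how reads that match both were handled, so values of these 2 genes are less certain. The gene Higd1c overlaps the last exon of Methig1 (its annotation ends at 100383964).

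Libraries held 3713352 to 25181916 counts in duodenum and 3725648 to 6492228 in kidney. Duodenum WT 2 was the deepest, and the next held 6519522. Every deposited count was even, so a read is taken below as 2 counts. Levels are CPM, a gene's counts relative to its library's total after TMM scaling, with 6 WT, 4 KO and 4 AF2 libraries behind each mean ± SD. Tests were edgeR quasi-likelihood tests over 13502 genes in kidney and 13302 in duodenum, two-sided, and called genes are those with a Benjamini-Hochberg adjusted p under 0.05. Vdr itself (chr15:97854425-97910630, minus strand) fell in KO from 197 ± 15.7 to 17.1 ± 6.44 CPM in kidney and from 487 ± 150 to 111 ± 9.72 CPM in duodenum. In AF2 it was 80.9 ± 11.5 CPM in kidney, with an edgeR adjusted p of 6.16e-05 against WT, and 398 ± 29.7 CPM in duodenum, with an adjusted p of 0.566. Where the tags lie relative to the altered part of Vdr is not known, so these values check the labels only in part. The library codes in the labels form 3 runs, WT 1 and 2 alone, WT 3 and 4 with all KO, and WT 5 and 6 with all AF2. A fit with the code run as a term left 4 of the 14 kidney calls of the 10 genes, and its adjusted p is given with each gene below. Kidney WT 1 stood apart in leukocyte markers, with Cd74 at 701 CPM against 50.4 to 98.4 CPM in the other 13 kidney libraries.

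Methig1 transcripts were nearly absent from KO kidney and were raised in AF2 kidney. The 6 WT libraries ran from 17.7 to 33.7 CPM, with a median of 27.8. The KO libraries stood at 2.06, 1.24, 0.590 and 0.756 CPM, from 4, 3, 2 and 2 reads. The AF2 libraries stood at 56.5, 44.4, 65.5 and 36.8 CPM. No library of one group overlapped another group. The log2 fold change was −4.62 ± 0.30 (SE) for KO against WT, with an edgeR adjusted p of 2.97e-11, a level 24.6-fold lower. For AF2 against WT it was 0.91 ± 0.19, with an adjusted p of 0.00438, and for AF2 against KO 5.53 ± 0.31, with an adjusted p of 3.88e-13. With the code run as a term, edgeR kept the calls of KO (1.11e-09) and of AF2 against KO (1.55e-08), and the adjusted p of AF2 against WT was 0.122. The KO value rests on 11 reads over 4 libraries, against 395 reads in WT and 464 in AF2.

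Mettl7a2, which encodes a methyltransferase-like protein of the METTL7 family, went the other way in KO kidney. The WT libraries ran from 26.3 to 79.5 CPM, with a median of 30.2, and 5 of the 6 lay at or below 34.8. The KO libraries stood at 165, 151, 221 and 148 CPM and the AF2 libraries at 60.5, 47.2, 55.8 and 23.0 CPM. KO thus lay above every library of the other genotypes, and AF2 overlapped WT. The log2 fold change of KO against WT was 2.17 ± 0.34, with an edgeR adjusted p of 0.0119. AF2 against WT gave 0.28 ± 0.35, with an adjusted p of 0.779, and AF2 against KO −1.89 ± 0.38, with an adjusted p of 0.0768. Without WT 1, the WT library at 79.5 CPM, the edgeR values were 2.52, with an adjusted p of 8.29e-06, for KO against WT and −1.89, with an adjusted p of 0.000766, for AF2 against KO. The call in KO was lost without KO 3, where the adjusted p was 0.0548, and with the code run, where it was 0.164.

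Set together, the reads at the 2 ends divided differently by genotype. The share of Methig1 among reads of both genes was 43.7 ± 12.8% in WT, 0.705 ± 0.417% in KO and 53.1 ± 6.26% in AF2. In KO the shares were 1.24, 0.809, 0.267 and 0.509%, and the highest upper bound of their 95% Wilson intervals was 3.13%, which covers counting error only. In AF2 they were 48.3, 48.5, 54.0 and 61.6%. In WT they were 18.2% in WT 1 (interval 13.7 to 23.8%, of 225 reads) and 43.8 to 52.9% in the other 5 libraries. The summed level of both transcripts was 65.1 ± 17.1 CPM for WT, 172 ± 33.6 CPM for KO and 97.4 ± 28.3 CPM for AF2. KO kidney thus held more reads at this locus in all, nearly all of them at the Mettl7a2 end.

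**Figure D1:**
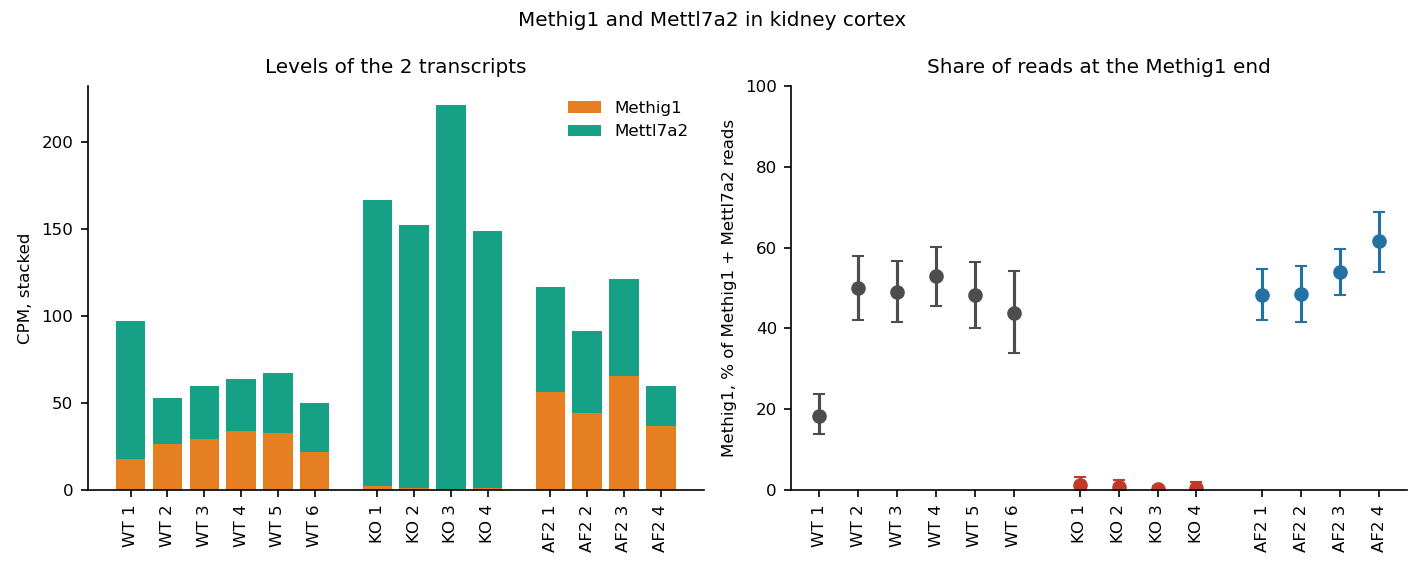
Methig1 and Mettl7a2 in each of the 14 kidney libraries. Left, CPM of the 2 genes stacked; right, the share of Methig1 among the reads of both, in percent, with 95% Wilson intervals as bars. The 4 KO libraries lie between 0.267 and 1.24%, WT 1 at 18.2%, and the other 9 libraries between 43.8 and 61.6%.

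WT 1 lay between the other WT libraries and KO at 4 of the 10 genes. It lay within the other WT libraries at 4, and outside them in a direction away from KO at 2. The genes were chosen as differing between genotypes, and no share over all genes is given. Nothing is therefore read from these counts. Beside its Mettl7a2 level, WT 1 had the lowest Methig1 level of the 6 WT libraries, 17.7 CPM against 21.9 to 33.7. Smagp was also lowest there, 62.7 CPM against 74.0 to 97.9, and so was Gtpbp1, 26.8 CPM against 30.4 to 39.4. Csad, higher in KO than in most WT libraries, was lowest in WT 1, 140 CPM against 203 to 275, and Mettl7a1 was highest there, 166 CPM against 102 to 141. Gm5475, a predicted gene 2.51 Mb from Vdr that was picked after its values were seen, was at 0.864 CPM in WT 1 and at 4.27 to 9.07 CPM in the other WT libraries. In KO it was at 1.54, 0.823, 0.590 and 3.40 CPM, and in AF2 at 6.05 to 11.3 CPM, which gave −1.95 on the log2 scale and an edgeR adjusted p of 0.0722 for KO against WT. Vdr in WT 1 was 208 CPM, within the 177 to 212 CPM of the other WT libraries. The part of the leukocyte signal of WT 1 in these values was not tested.

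Mettl7a1, the third METTL7 gene of the cluster (chr15:100304140-100328662), fell in AF2 only among the tests against WT. Its WT libraries ran from 102 to 166 CPM, with a median of 135. The KO libraries stood at 147, 112, 117 and 101 CPM and the AF2 libraries at 100, 69.2, 92.3 and 49.2 CPM. AF2 lay below every WT and KO library, and KO overlapped WT. The log2 fold change of AF2 against WT was −0.76 ± 0.18, with an edgeR adjusted p of 0.0192. It lost its call without WT 3, with an adjusted p of 0.05002, without AF2 2, with 0.0886, and with the code run, with 0.272. KO against WT gave −0.14 ± 0.17, with an adjusted p of 0.830. Mettl7a3, the fourth gene of the cluster, had 0 reads in all 28 libraries.

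Smagp, Lima1 and Gtpbp1 shared an order in kidney, lowest in KO and highest in AF2. Smagp encodes a small transmembrane glycoprotein of epithelial cells. Its WT libraries ran from 62.7 to 97.9 CPM, with a median of 82.9. The KO libraries stood at 55.6, 51.9, 58.7 and 46.5 CPM, all below WT, and the AF2 libraries at 98.8, 87.4, 105 and 125 CPM. KO against WT gave −0.61 ± 0.13 on the log2 scale, with an edgeR adjusted p of 0.0119, and AF2 against KO gave 0.97 ± 0.14, with an adjusted p of 0.000293. AF2 against WT was 0.36 ± 0.12, with an adjusted p of 0.135. Without KO 4 the adjusted p of KO against WT was 0.0670. With the code run it was 0.0177, and that of AF2 against KO was 0.0555.

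Lima1 encodes EPLIN, a LIM protein that bundles actin filaments and that in intestine is linked to cholesterol absorption. In kidney its WT libraries ran from 179 to 234 CPM, with a median of 203. KO libraries stood at 180, 169, 150 and 166 CPM and AF2 libraries at 244, 218, 236 and 284 CPM. KO and AF2 did not overlap each other, while each overlapped WT. AF2 against KO gave 0.56 ± 0.12, with an edgeR adjusted p of 0.0171, which became 0.0656 without KO 3 and 0.613 with the code run. Against WT neither mutant passed, with −0.31 ± 0.11 in KO (edgeR adjusted p of 0.208) and 0.26 ± 0.10 in AF2 (0.218).

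Gtpbp1, which encodes a GTP-binding protein related to translation factors, lies 18.2 Mb from Vdr on the side opposite to Smagp and Lima1. Its WT libraries ran from 26.8 to 39.4 CPM, with a median of 35.1. KO libraries stood at 22.1, 20.6, 24.2 and 21.9 CPM, all below WT, and AF2 libraries at 31.8, 44.9, 33.2 and 49.2 CPM. AF2 against KO gave 0.84 ± 0.17, with an edgeR adjusted p of 0.0165. That call was lost without KO 2, KO 4 or AF2 4, where the adjusted p reached 0.0636, and with the code run, where it was 0.900. KO against WT, at −0.60 ± 0.16, had an adjusted p of 0.0636 with all libraries and of 0.0388 without WT 1.

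Cela1 was called lower in both mutants in kidney, alone among the 10 genes. It encodes chymotrypsin-like elastase 1, a serine protease best known as a pancreatic digestive enzyme. WT libraries ran from 167 to 226 CPM, with a median of 202. The KO values were 162, 131, 90.6 and 127 CPM and the AF2 values 80.7, 80.8, 86.0 and 113 CPM. Both mutants lay below every WT library and overlapped each other. The log2 fold change was −0.66 ± 0.13 in KO, with an edgeR adjusted p of 0.00933, and −1.16 ± 0.14 in AF2, with 2.57e-06. AF2 against KO gave −0.50 ± 0.14, with an adjusted p of 0.141. The KO call was lost without KO 3, with an adjusted p of 0.0573, and with the code run, with 0.424, where the AF2 call held (0.000282).

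Miox, Csad and Ttc38 completed the kidney set. Miox, the oxygenase that opens the ring of myo-inositol in proximal tubule, was the most abundant, from 1538 to 2255 CPM in WT with a median of 1837. KO libraries stood at 2363, 2718, 2643 and 3001 CPM, all above WT. AF2 libraries stood at 2240, 2168, 2143 and 3277 CPM, of which only AF2 4 lay above WT. KO against WT gave 0.53 ± 0.12, with an edgeR adjusted p of 0.0194, and AF2 against WT 0.40 ± 0.12, with 0.0578. The KO call was lost without WT 5, KO 2, KO 3 or KO 4, where the adjusted p reached 0.169, and with the code run (0.326).

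Csad, the decarboxylase that makes hypotaurine on the way to taurine, ran from 140 to 275 CPM in WT, with a median of 223. In KO it was 240, 252, 294 and 273 CPM, within and above that range, and in AF2 328, 329, 306 and 437 CPM, all above it. AF2 against WT gave 0.67 ± 0.14, with an edgeR adjusted p of 0.00551, and KO against WT 0.27 ± 0.14, with 0.516. With the code run the AF2 call was lost, at 0.304. Ttc38, a tetratricopeptide repeat protein gene, ran from 40.9 to 57.8 CPM in WT, with a median of 51.1. In KO the libraries were at 48.4, 38.3, 47.5 and 37.8 CPM and in AF2 at 41.3, 29.4, 36.1 and 32.8 CPM. Of the AF2 libraries 3 lay below WT and 1 within it, with −0.55 ± 0.14 and an edgeR adjusted p of 0.0252. This call was lost without WT 3, WT 5, AF2 2 or AF2 3, where the adjusted p reached 0.103, and with the code run (0.273).

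**Figure D2:**
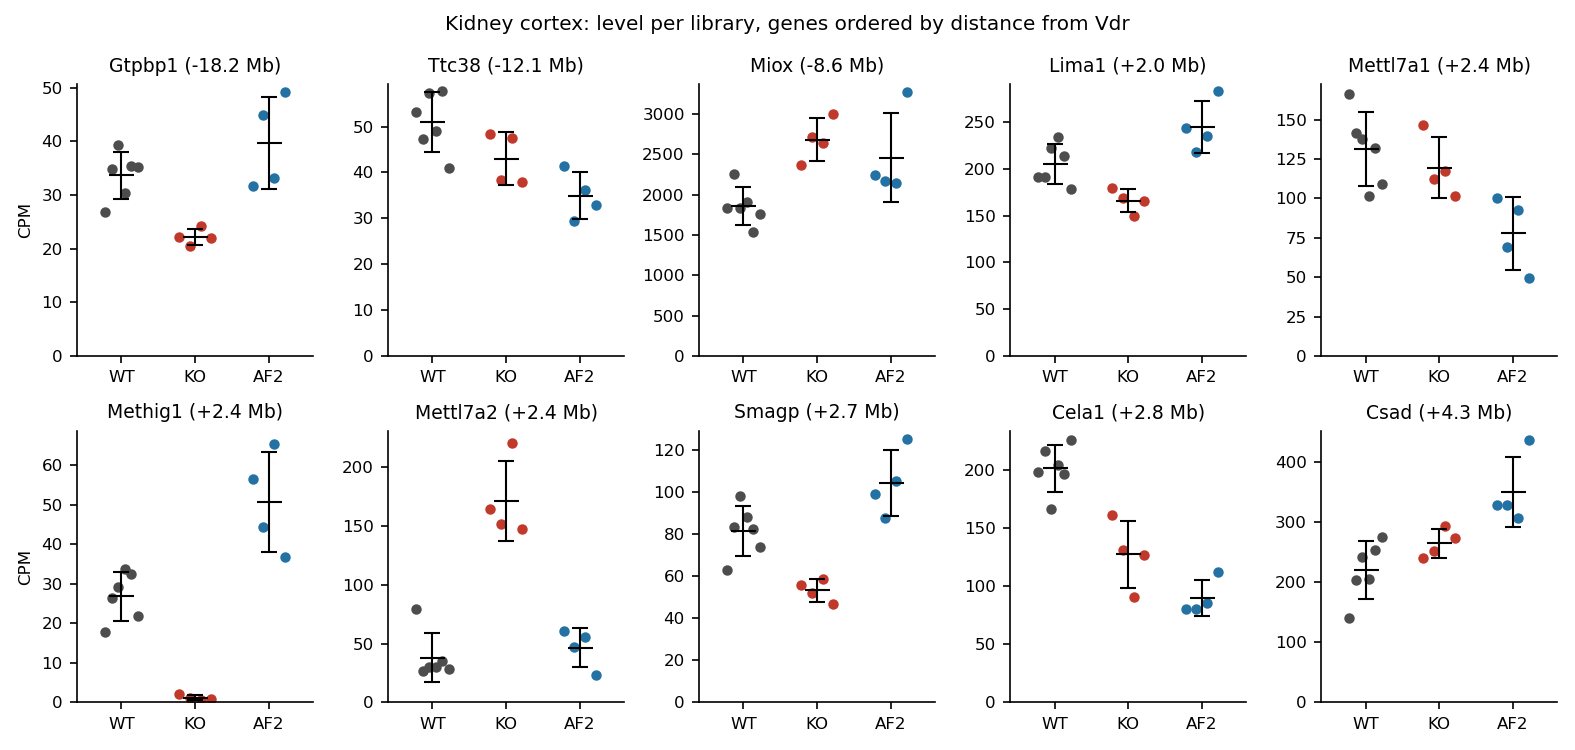
CPM of the 10 genes in each kidney library, ordered by distance from Vdr in Mb, negative toward the centromere. Points are libraries of WT, KO and AF2; bars are mean ± SD. Methig1 falls to between 0.590 and 2.06 CPM in KO while Mettl7a2 rises to between 148 and 221 CPM.

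Counted over the 10 genes, 5 were called in KO against WT in kidney, 2 higher and 3 lower, where 0.844% of all genes tested were called (0.289% higher and 0.555% lower). In AF2 against WT 5 were called, 2 higher and 3 lower, against 2.71% of all genes (1.08% and 1.63%). In AF2 against KO 4 were called, all higher in AF2, against 0.333% of all genes in either direction and 0.2% higher. Groups did not overlap for 6, 4 and 7 genes in these comparisons, against 3.44%, 4.73% and 7.16% of all genes. These counts follow from how the list was made and are not evidence about it. By mutant line, Mettl7a2, Smagp and Miox were called against WT in KO and not in AF2, and Csad, Mettl7a1 and Ttc38 in AF2 and not in KO. Methig1 and Cela1 were called in both, Methig1 in opposite directions and Cela1 in the same direction. Both comparisons share the WT libraries. Of the 6 genes called against WT in a single mutant line, Smagp alone also passed the test of AF2 against KO.

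Within its code run, KO lay outside both WT libraries for 8 of the 10 genes, all but Mettl7a1 and Csad, where 18.4% of all genes did. Methig1 was 31.5 CPM in WT 3 and 4 against 1.16 CPM in KO, and Mettl7a2 30.2 CPM against 171 CPM. AF2 lay outside WT 5 and 6 for 7 of 10, all but Mettl7a2, Gtpbp1 and Ttc38, where 19.6% of all genes did. Ttc38, called in AF2, thus overlapped the WT libraries of its run. The counts of 8 and 7 use the kidney values by which the genes were chosen and are given as a description. Methig1 was 27.2 CPM in WT 5 and 6 against 50.8 CPM in AF2, and Cela1 212 CPM against 90.03 CPM. With the code run as a term, Methig1 and Smagp stayed called in KO, Cela1 in AF2, and Methig1 in AF2 against KO. The other 10 kidney calls were lost, with adjusted p from 0.0555 to 0.900, and none changed direction. With the run term the log2 fold change grew for Mettl7a2 in KO, from 2.17 to 2.50. It also grew for Smagp (0.97 to 1.22) and Lima1 (0.56 to 0.78) in AF2 against KO. For the other lost calls it shrank in size, as for Csad in AF2 (0.67 to 0.41) and Miox in KO (0.53 to 0.52). Standard errors grew for every lost call, as for Csad in AF2 (0.14 to 0.16) and Mettl7a2 in KO (0.34 to 0.49). The part of the run itself in these losses was not tested.

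In duodenum no call was made among the 7 genes tested, in any of the 3 comparisons, by edgeR. Of all genes 0.0226%, 0.0677% and 0.015% were called in KO against WT, AF2 against WT and AF2 against KO, so few calls were made anywhere. At an unadjusted p under 0.05 the counts were 2, 1 and 1 of 7, against 11.4%, 11.8% and 9.98% of all genes. DESeq2 called Lima1 in both mutants, with adjusted p of 0.00800 in KO and 0.0184 in AF2. The shares above are of edgeR, and no share of all genes called by DESeq2 is given. Among 253 other genes within 20 Mb of Vdr, DESeq2 called 1, 2 and 3 in the 3 comparisons, and edgeR 0, 1 and 0. How unusual the DESeq2 calls of Lima1 are is therefore not known.

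Lima1 came nearest to a call in duodenum. WT libraries ran from 905 to 1138 CPM, with a median of 950. KO libraries stood at 652, 754, 679 and 810 CPM and AF2 libraries at 777, 771, 759 and 682 CPM. Every mutant library lay below every WT library. Of all genes 2.2% separated from WT in KO and 2.73% in AF2, in either direction. The share that lay below WT in both mutants is not given. The log2 fold changes were −0.43 ± 0.11 in KO, with an edgeR adjusted p of 0.128, and −0.38 ± 0.11 in AF2, with 0.141. Within the code runs KO averaged 724 CPM against 913 in WT 3 and 4, and AF2 747 CPM against 1061 in WT 5 and 6. Without WT 4 edgeR called Lima1 in KO, with an adjusted p of 0.0300. Beside it, summed enterocyte markers ran from 10480 to 21230 CPM in WT and from 10340 to 15470 CPM in the mutants, and their part in the Lima1 values was not tested.

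Mettl7a1 was scarce in duodenum, with 7 to 104 reads per library. WT libraries ran from 4.01 to 11.6 CPM, with a median of 7.28. KO libraries stood at 3.58, 4.05, 4.69 and 4.11 CPM and AF2 libraries at 10.4, 12.8, 6.06 and 6.44 CPM. KO lay at the low end of WT and below every AF2 library, as 6.56% of all genes did in either direction. KO against WT gave −0.90 ± 0.34, with an edgeR adjusted p of 0.314, and AF2 against KO 1.12 ± 0.36, with 0.236. In kidney the fall had been in AF2, where duodenum gave 0.22 ± 0.31 (edgeR adjusted p of 0.842).

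Mettl7a2 and Miox could not be compared in duodenum. Mettl7a2 had 0 reads in all 14 libraries, which allows up to 0.123 CPM over the WT libraries, 0.355 over KO and 0.322 over AF2 (3 reads per group, counting error only). Miox had 1 read, in WT 2. With no reads in any genotype, duodenum gives no comparison for Mettl7a2.

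Smagp, Gtpbp1, Ttc38 and Csad overlapped between all genotypes in duodenum. Smagp was 84.5 ± 14.1 (WT), 68.0 ± 16.8 (KO) and 75.8 ± 13.1 CPM (AF2), with −0.31 ± 0.16 in KO and an edgeR adjusted p of 0.448. Gtpbp1 was 37.8 ± 5.42, 40.5 ± 12.1 and 44.5 ± 6.25 CPM, given here and for the next genes as WT, KO and AF2. In KO its log2 fold change was 0.09 ± 0.17 in duodenum and −0.60 ± 0.16 in kidney. Ttc38 was 32.0 ± 6.90, 28.9 ± 10.2 and 32.4 ± 3.93 CPM, and Csad 21.2 ± 5.30, 22.6 ± 3.86 and 25.1 ± 2.92 CPM. Csad in AF2 gave 0.25 ± 0.19 in duodenum, with an edgeR adjusted p of 0.660, against 0.67 ± 0.14 in kidney.

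Cela1 in duodenum spanned 26.1 to 4048 CPM over the 14 libraries and overlapped between all groups, with an edgeR adjusted p of 0.950 in KO and 0.961 in AF2. It moved with pancreatic acinar markers, 16 genes whose summed level ran from 1706 to 24160 CPM over the same libraries. WT 3, highest in Cela1 at 4048 CPM, was highest in the markers, and WT 2, WT 6 and KO 1, at 29.7, 26.1 and 38.9 CPM, had marker sums of 1706, 2365 and 1891 CPM. Bulk values cannot tell fewer cells of a type from less RNA per cell. In kidney the acinar sum was 0 to 2.89 CPM, with 5 of the 10 markers that had a row at 0 in every library, while Cela1 stood at 80.7 to 226 CPM.

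**Figure D3:**
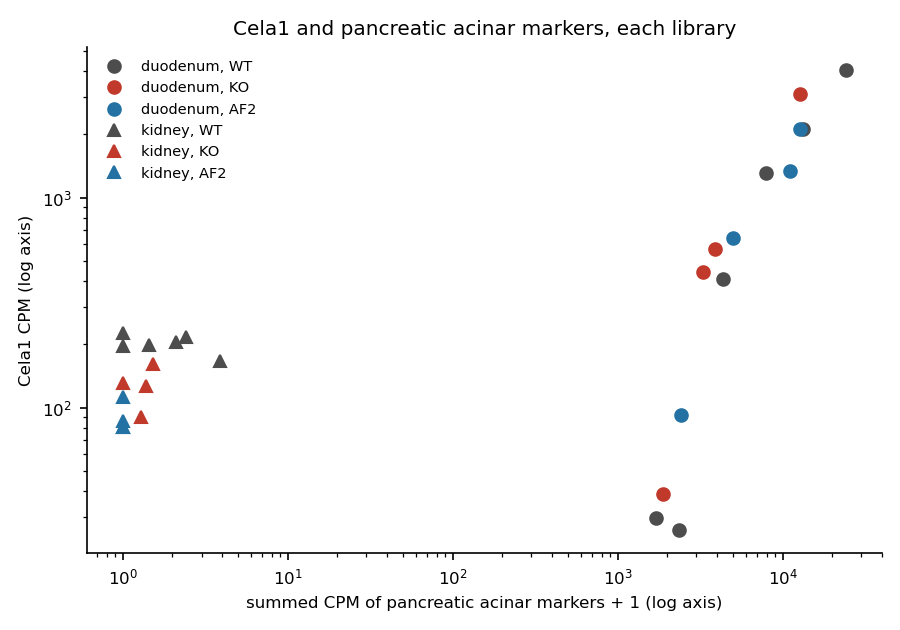
Cela1 against the summed level of pancreatic acinar markers in each of the 28 libraries, both in CPM on log axes, with 1 added to the marker sum. Duodenal libraries (circles) climb together from 26.1 to 4048 CPM of Cela1; kidney libraries (triangles) hold 80.7 to 226 CPM of Cela1 at marker sums of at most 2.89 CPM.

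Kidney and duodenum effects were set against each other in a fit of all 28 libraries over 14944 genes, with a term for the difference. For KO against WT none of the 7 genes was called by edgeR, where 0.0535% of all genes were, and 2 had an unadjusted p under 0.05, against 7.99% of all genes. These were Gtpbp1, at −0.65 ± 0.24 (kidney minus duodenum) with an adjusted p of 0.419, and Mettl7a1, at 0.80 ± 0.36 with an adjusted p of 0.567. For AF2 against WT 1 of 7 was called, where 0.381% of all genes were, and 4 had an unadjusted p under 0.05 (Lima1, Mettl7a1, Smagp and Ttc38), against 10.7%. The kidney values that enter this difference are those by which the genes were chosen, so it is given as a description. It was Lima1, higher in AF2 kidney and lower in AF2 duodenum, with a difference of 0.66 ± 0.15 and an adjusted p of 0.0326. That call was lost without any 1 of 9 libraries, 4 of kidney (WT 1, WT 2, AF2 1 and AF2 4) and 5 of duodenum (WT 2, WT 6, AF2 1, AF2 3 and AF2 4), where the adjusted p reached 0.0855. In KO the same gene was lower than WT in both tissues, with a difference of 0.16 ± 0.15 (edgeR adjusted p of 0.847). Signs were the same in both tissues for 6 of 7 genes in KO and for 3 of 7 in AF2. In KO duodenum the log2 fold changes of Cela1, Gtpbp1, Ttc38 and Csad lay within 1 SE of 0. In AF2 duodenum those of Mettl7a1, Cela1 and Ttc38 did. No share over all genes is given beside these sign counts, so nothing is read from them.

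**Figure D4:**
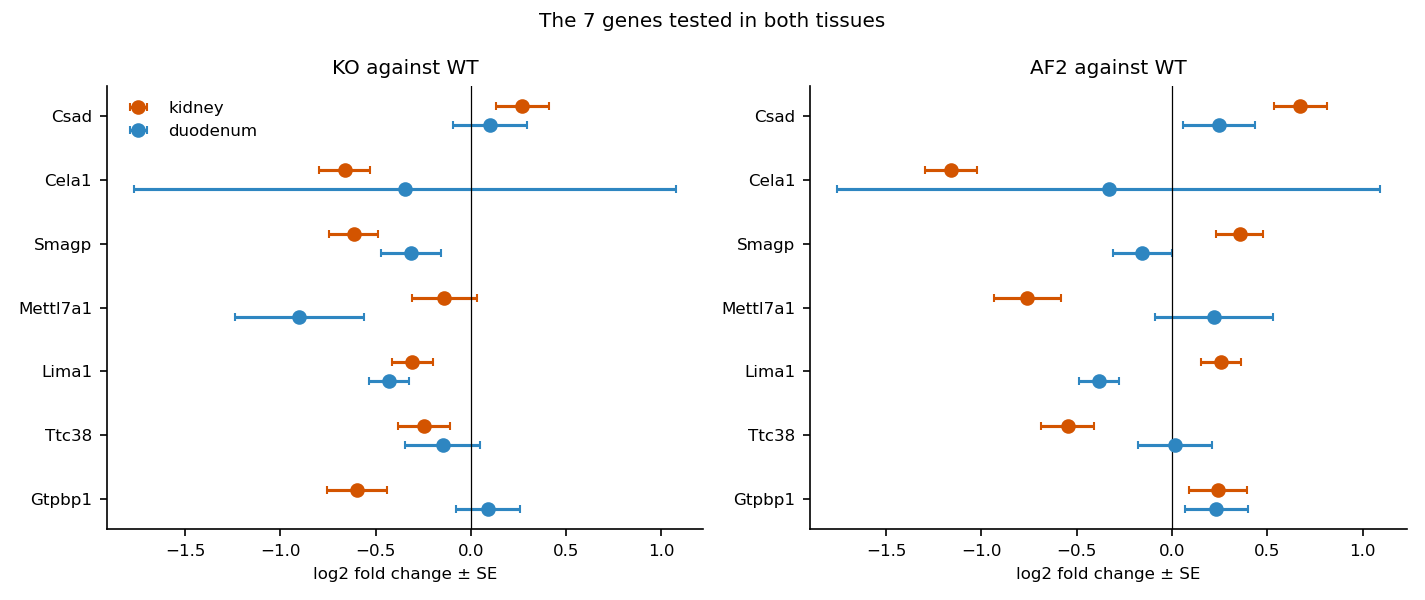
Log2 fold changes ± SE of the 7 genes tested in both tissues, KO against WT on the left and AF2 against WT on the right, kidney in orange and duodenum in blue. Lima1 lies on opposite sides of 0 in AF2, at 0.26 in kidney and −0.38 in duodenum, and the duodenal bars of Cela1 are the widest, with an SE of 1.42.

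By position, 3 of the 10 genes lie on the side of Vdr toward the centromere (Gtpbp1 at 18.2 Mb, Ttc38 at 12.1 Mb and Miox at 8.58 Mb) and 7 on the other. Lima1 (1.96 Mb), Mettl7a1 (2.39 Mb), Methig1 and Mettl7a2 (both 2.44 Mb), Smagp (2.73 Mb) and Cela1 (2.78 Mb) fall in a stretch of less than 1 Mb, and Csad lies at 4.29 Mb. Of the genes tested in kidney between 1.5 and 3 Mb on that side, 8 of 30 were called in at least 1 comparison, these 6 among them, where 3.04% of all genes were. Without the 6 it was 2 of 24, or 8.33%. None of the 27 genes from 0 to 1.5 Mb and none of the 24 genes within 5 Mb on the other side was called. The stretches are short and of unequal width, and the placement of the 10 genes enters these counts. Nothing is read from the stretch of 1.5 to 3 Mb, whose limits enclose the 6 genes, or from the empty ones.

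Of all 287 genes tested in kidney within 20 Mb of Vdr, the 10 included, 7 (2.44%) were called in KO, 9 (3.14%) in AF2 and 6 (2.09%) in AF2 against KO. Removing the 10, which were picked as differing, leaves 277 genes whose share is lowered by that choice. Of these 2 (0.722%) were called in KO, against 0.787% on other chromosomes, 4 (1.44%) in AF2, against 2.67%, and 2 (0.722%) in AF2 against KO, against 0.281%. On chromosome 15 beyond 20 Mb the shares among 249 genes were 1.2%, 5.22% and 0.402%. The median absolute log2 fold change of the 277 genes was 0.20 in KO and 0.23 in AF2, against 0.18 and 0.20 on other chromosomes. In duodenum 0, 1 and 0 of 253 were called. The window's edge fell between Txn2, inside at 19.98 Mb, and Myh9, outside at 20.07 Mb, with kidney log2 fold changes of −0.23 and −0.03 in KO.

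**Figure D5:**
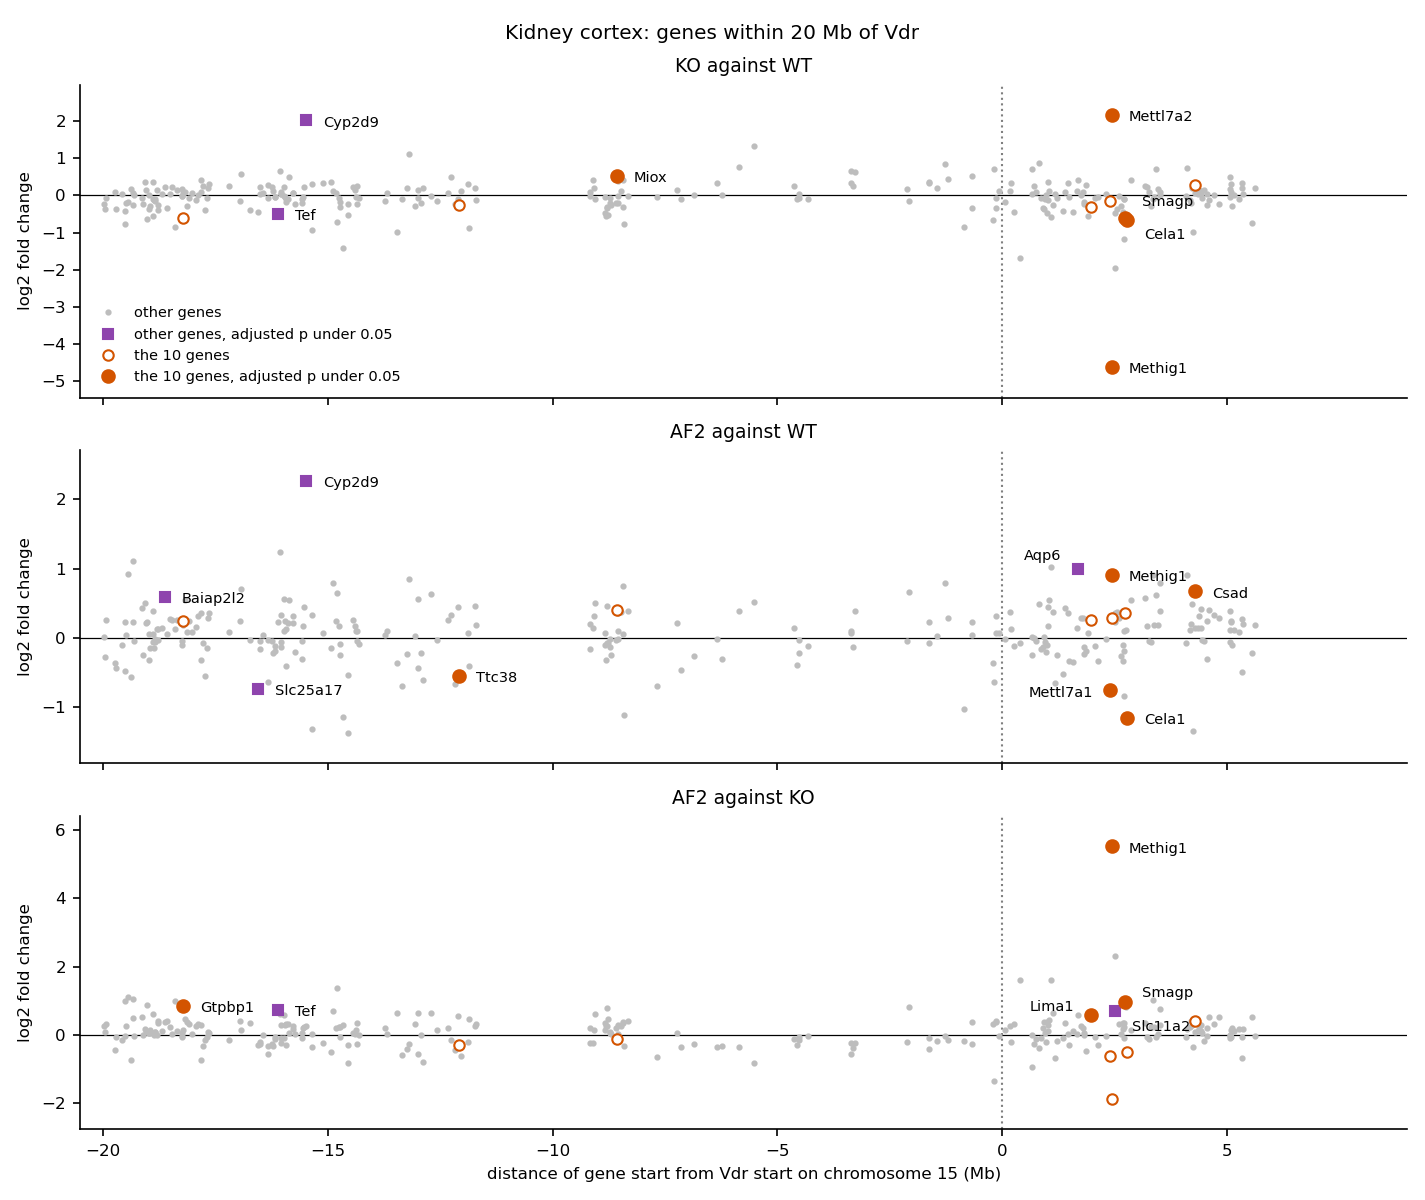
Kidney log2 fold change of every tested gene within 20 Mb of Vdr against its distance from Vdr in Mb, for KO against WT, AF2 against WT and AF2 against KO. Orange circles are the 10 genes, filled where called; purple squares are other called genes and grey points the rest. Methig1 and Mettl7a2, at 2.44 Mb, lie at −4.62 and 2.17 in KO.

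The other called neighbours in kidney were 6 genes. Cyp2d9, a cytochrome P450 15.5 Mb toward the centromere, rose in both mutants, from 6.89 ± 3.03 CPM (WT) to 27.3 ± 4.97 (KO) and 32.8 ± 10.6 (AF2), with edgeR adjusted p of 0.000655 and 5.04e-05. Its near-identical P450 relatives make this value uncertain. Tef, a clock-controlled transcription factor 16.1 Mb away on that side, had the order of Smagp and Gtpbp1, with 309 ± 30.1 (WT), 220 ± 48.2 (KO) and 362 ± 37.1 CPM (AF2). It was called in KO against WT (edgeR adjusted p of 0.0446) and in AF2 against KO (0.00847). Slc11a2, the ferrous iron transporter DMT1, lies at 2.51 Mb and overlaps Gm5475 on the other strand, so their counts may not be separable. It had the same order, at 52.8 ± 8.07, 38.0 ± 8.29 and 61.8 ± 6.10 CPM, and was called in AF2 against KO (edgeR adjusted p of 0.0343). Aqp6, an aquaporin of intercalated cells 1.69 Mb away, and Baiap2l2, a membrane-bending protein 18.6 Mb away, rose in AF2, by 1.00 and 0.59 on the log2 scale. Slc25a17, a peroxisomal carrier 16.5 Mb away, fell in AF2 (−0.73). In duodenum Rpl31-ps8, a ribosomal pseudogene, rose in AF2 by 0.92, with an edgeR adjusted p of 0.0392, and no neighbour was called in AF2 against WT without any 1 of 9 libraries (WT 2, 3, 5 and 6, KO 3 and AF2 1 to 4).

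For comparison, receptor targets and hormone genes on other chromosomes were read in the same libraries, 13 of 15 of them tested in kidney. In each mutant 1 was called higher and 2 lower. Cyp24a1, which breaks down the hormone, fell from 16.5 ± 10.3 CPM in WT to 0.103 ± 0.206 in KO and 0.222 ± 0.257 in AF2, with edgeR adjusted p of 5.09e-06 and 3.46e-06. S100g, the calcium buffer calbindin-D9k, fell from 894 ± 323 to 103 ± 21.9 and 58.9 ± 12.04 CPM. Cyp27b1, which makes the hormone, rose from 1.87 ± 0.907 to 115 ± 55.7 and 223 ± 138 CPM. Calb1, which encodes the calcium buffer calbindin-D28k, was called in AF2 against KO (edgeR adjusted p of 0.0106), at 377 ± 36.9 CPM in WT, 501 ± 128 CPM in KO and 310 ± 17.7 CPM in AF2. In duodenum Trpv6, the apical calcium channel, fell in AF2, with a log2 fold change of −3.56 (edgeR adjusted p of 0.0392). The median log2 fold change of the 13 was −0.04 in KO and −0.25 in AF2, beside −0.00 and 0.01 over all genes.

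Partners of the named genes were read from lists of their pathways. These lists also hold the chosen genes themselves, whose kidney calls follow from how they were picked. Among 9 taurine genes tested in kidney, AF2 against WT called Csad and Cbs higher and Fmo1 lower, and KO called none. Of all genes 2.71% were called in AF2 against WT and 0.844% in KO against WT. Csad is a chosen gene, and with so few calls in KO nothing is read from their absence in this list. Cbs, which commits homocysteine to cysteine synthesis, rose from 50.9 ± 9.99 to 86.3 ± 8.92 CPM (edgeR adjusted p of 0.000645) and was also called in AF2 against KO (0.0165). Fmo1, a flavin monooxygenase that oxidises hypotaurine, fell from 302 ± 27.5 to 206 ± 43.5 CPM (0.00621). Among 12 genes of inositol breakdown and polyol handling, Miox was the only call, in KO. Among 10 genes of the actin-bundle list Lima1, and among 9 GTPBP-family genes Gtpbp1, was the only call, both in AF2 against KO. That a chosen gene was the only call of its list is therefore given as a description. Among 6 METTL7 and HIG1 genes the calls were Methig1, Mettl7a2 and Mettl7a1. None of these lists had a call in duodenum.

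Likeness over the 14 kidney libraries was measured as Pearson's r of log2(CPM + 1). It is given as a description of libraries that share depth and genotype. With the 10 genes left out of the search, 9 of them had their nearest gene on another chromosome. Of the 13502 genes tested in kidney, 12828 lie on other chromosomes, so nothing is read from this count. Smagp was the exception, with Tef (0.904). The others were Abca9 for Methig1 (−0.88), Aass for Mettl7a1 (0.93), Amz1 for Mettl7a2 (−0.92) and Pakap for Cela1 (0.96). Lima1 paired with Prxl2a (−0.91), Gtpbp1 with Cant1 (0.90), Ttc38 with Med28 (−0.93), Miox with Tm9sf2 (−0.90) and Csad with Sh3bp5 (0.94). With the 10 genes included, the nearest gene was Lima1 for Smagp (0.907) and Smagp for Methig1 (0.891).

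All 10 genes had a RefSeq promoter window, of 250 bases before to 50 after the start, 11 distinct windows in all. The receptor's direct repeat was searched on both strands as AGGTCA or AGTTCA followed, after 3 free bases, by the same 6 letters, and no window held either form. They occur in 2 and 0 of the 32851 windows of all genes, so their absence carries no information. The single repeat unit AGGTCA was in 3 of the 11 windows, those of Miox, Cela1 and the shared Methig1 and Mettl7a2 start, and AGTTCA in 1, that of Lima1. Over all genes 5340 and 4597 of the 32851 windows held them. The match in the shared window starts at base 208, past the 199 bases printed above and inside exon 1 of Methig1. A match is a description of letters, not a binding site.

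Some cell type marker sums of kidney differed by genotype. Those of endothelium, smooth muscle and crypt overlapped between all genotypes, with no marker called. Summed proximal tubule markers, all 12 of them above 0, ran from 7680 to 9911 CPM in WT, 6781 to 8126 in KO and 6262 to 7435 in AF2. Of these 12, 2 were called lower in KO and 3 in AF2, where 0.555% and 1.63% of all genes were. Summed thick ascending limb markers, all 5 above 0, ran from 2950 to 3997, 3772 to 4616 and 4202 to 4625 CPM. Summed podocyte markers, all 5 above 0, ran from 233 to 302, 289 to 316 and 361 to 463 CPM. In KO the podocyte sum overlapped WT, and no podocyte marker was called there. In AF2, 2 of the 5 podocyte markers were called higher against WT and 1 against KO. Of the 5 thick ascending limb markers, 1 was called higher in KO and 2 in AF2. In AF2 against WT, 1 of 6 collecting duct and 1 of 4 tested leukocyte markers were called higher. In AF2 against KO, 1 of 4 distal convoluted tubule markers was called lower. Miox, a proximal tubule gene, was higher in KO. The proximal tubule sum in KO overlapped WT, with a median of 7839 CPM against 8607 CPM. The part of these marker differences in the values of the 10 genes was not tested.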

How the data were processed

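The authors deposited raw counts per gene symbol and library, 1 table per tissue, with genotype, diet, sex and age per the file headers. Per the labels' protocols, total RNA was extracted with TRIzol and libraries were made with QuantSeq. The submitters' processing notes name mm10 and limma 3.34.9; no source used here names the aligner, the counter or the use of strand. The library code matched columns to samples, and no column of another series was present.

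Each tissue was fitted in edgeR 4.0.16 (R 4.3.3) with all 14 libraries and genotype as the only term, with filterByExpr, TMM and robust quasi-likelihood F tests, two-sided. Adjusted p-values are Benjamini-Hochberg over all genes tested in a comparison, and each standard error is a log2 fold change, unsigned, divided by the root of its F. Nothing says that libraries of a group came from separate animals in each tissue, so p-values measure the spread between libraries. No 2 libraries of a group agreed within sampling noise (smallest chi-square per degree of freedom 1.96). Positions are distances between gene starts in GENCODE vM21, and promoters are RefSeq's (GRCm38.p6). Scripts were tested on simulated data. Alternatives were DESeq2 1.42.0, limma-voom (limma 3.58.1), RLE scaling, no filter, counts divided by 2, a library code run or replicate number as a term, a 10 Mb window, and leaving out each library.

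The 10 genes, the pathway lists and the markers were chosen with earlier results of these data known. Named genes are the 10, Vdr, called neighbours within 20 Mb, the nearest gene by correlation, and up to 4 called genes of each pathway list. The nearest gene was sought outside the 10, among genes whose mean log2 CPM was 1 or more. Gm5475 was added after its values were seen.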

Additional observations from a re-analysis of the deposited data

Results flagged for a closer look

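Among 51 groups of 4 or 6 libraries examined, 4 held a library whose gap to its nearest neighbour was large for the range of the group; chance gives about 1 in 20 such groups. In kidney, WT 1 stood at 79.5 CPM for Mettl7a2, where the other WT libraries reached 34.8. In kidney, AF2 4 stood at 113 CPM for Cela1, where the other AF2 libraries reached 86.0, and at 3277 CPM for Miox, where they reached 2240. In duodenum, WT 6 stood at 1138 CPM for Lima1, where the other WT libraries reached 983.

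The effect of AF2 against WT on Lima1 differed between kidney and duodenum by 0.66 on the log2 scale, by the interaction test given above (edgeR adjusted p of 0.0326). Its kidney side holds the values by which Lima1 was chosen, and the call was lost without any 1 of 9 libraries.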

How the results depend on the processing

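Single-gene results kept their direction and side of the threshold in 417 of 455 combinations of gene, comparison and setting other than leaving out a library, and in 1047 of 1106 that left out 1 library. The cause of the changes was not tested.

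Counts of called genes are given below for the 10 genes first and for their other neighbours within 20 Mb second. With DESeq2 the neighbours numbered 6, 8 and 5 in kidney (KO against WT, AF2 against WT, AF2 against KO, in that order throughout) and 1, 2 and 3 in duodenum, and Lima1 was called in duodenum in KO (1) and AF2 (1). With no filter on low counts the neighbours numbered 6, 10 and 9 in kidney and 6, 4 and 3 in duodenum, where KO called 1 of the 10 genes. With limma-voom the duodenal neighbour in AF2 was lost (0). With counts divided by 2, neighbours numbered 4 in AF2 against KO in kidney and 1 in KO in duodenum. In a window of 10 Mb they numbered 0, 1 and 1 in kidney. With the library code run as a term the 10 genes gave 2, 1 and 1 calls in kidney and their neighbours 1, 2 and 0, with 2 in AF2 in duodenum.

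The replicate numbers did not pair the libraries: of 12 pairs with the same number in each tissue, 1 had a correlation of deviations above 0.1. With the replicate number as a block, the 10 genes gave 4, 5 and 6 calls in kidney and 0 in duodenum, and their neighbours 1, 8 and 4 in kidney and 0 in AF2 in duodenum. The tissue difference of Lima1 in AF2 was 0.55 with an edgeR adjusted p of 0.165 under the block, which left 0 of 7 genes called.

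Directions that changed were all of values that had not passed the test. With the code run as a term, AF2 against KO turned to 0.056 for Miox in kidney and to −0.18, −0.17 and −0.011 for Smagp, Lima1 and Gtpbp1 in duodenum, and KO against WT to −0.23 for Csad in duodenum. The tissue differences turned to 0.82 (Cela1) and −0.11 (Lima1) in KO and −0.018 (Csad) in AF2. With limma-voom duodenal Cela1 turned to 0.23 in KO and 0.85 in AF2, and the tissue difference of Ttc38 in KO to 0.0054. Under the block, Ttc38 turned to −0.071 in AF2 duodenum, and the tissue differences in KO to 0.91 (Cela1) and 0.014 (Ttc38).

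Leaving out 1 library gave 2 to 6, 3 to 6 and 3 to 5 calls among the 10 genes in kidney. KO had 2 without KO 3 and 3 without KO 4, and AF2 had 3 without WT 3 or AF2 2. In duodenum the range was 0 to 1 in KO (1 without WT 4) and 0 in both other comparisons. Neighbours ranged over 1 to 4, 4 to 6 and 1 to 4 in kidney and 0 to 5, 0 to 4 and 0 in duodenum. In kidney KO had 4 without KO 1 and 1 without WT 2, WT 3, WT 4, WT 5, KO 3 or AF2 3, and AF2 against KO had 4 without WT 1 and 1 without WT 3, KO 3 or AF2 3. In duodenum KO had 5 and AF2 4 without WT 4, and KO had 1 without WT 6. The tissue difference had 0 to 1 of 7 calls in AF2 and 0 in KO. Log2 fold changes that crossed 0 in duodenum ranged from −1.92 to 0.42 (Cela1) and −0.13 to 0.18 (Gtpbp1) in KO. In AF2 they ranged from −0.94 to 0.44 (Cela1), −0.0053 to 0.38 (Mettl7a1) and −0.059 to 0.13 (Ttc38), and for Cela1 in AF2 against KO from −0.59 to 1.59. Tissue differences that crossed 0 ranged from −1.07 to 1.26 (Cela1) and −0.20 to 0.16 (Ttc38) in KO and from −0.088 to 0.12 (Gtpbp1) in AF2.

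Depth limits duodenal Mettl7a1, at 7 to 104 reads per library, and Methig1 in KO kidney, at 2 to 4 reads per library.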
